A study of Homo sapiens with 12 samples.

Results

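Glycolysis and hypoxia-response genes were followed through Ras-induced senescence of human fibroblasts. The 41 genes were chosen by name, with earlier results of these data known. All 41 were present in the gene table of 27106 genes. They passed the filter of at least 10 normalized counts in at least 2 of the 12 libraries, as did 13924 genes in all. In 40 of the 41 every library reached 10, and EGLN3, which did so in 7 libraries, was the one nearest the threshold. The source of the poly(A) RNA was IMR90, a lung fibroblast line of human origin, here immortalised with hTERT, the catalytic subunit of telomerase, and carrying an oncogenic Ras fused to a tamoxifen-responsive receptor domain (RasERT2). All cells received 0.5 ug/ml doxycycline to induce a hairpin RNA, either shIL1R, against the interleukin-1 receptor, or shScr, a scrambled control. The protocol then names 200 nM tamoxifen or ethanol as its control, and the sample labels assign ethanol to no library. Collection was at day 0 (growing), at day 4, when secretion of inflammatory factors begins, and at day 10 (senescent). This gives 6 groups of 2 libraries. No library of day 4 or day 10 is labelled as uninduced, so time in culture cannot be told apart from Ras induction.

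The design names 2 hairpins against the receptor, and which of them a given shIL1R library carries is not in the labels, nor is whether replicates were separate cultures. The p-values therefore measure the spread between these samples, which may be technical. The cells are one line and its one Ras construct. Recovered reads ran from 24140324 to 30127727 per library. IL1R1, the hairpin's target, stood at 731 and 378 at day 0, 272 and 86.4 at day 4, then 295 and 279.9 at day 10 in shIL1R cells, and at 1509 and 1552 at day 0, 1546 and 1423 at day 4, then 1580.1 and 1239.6 at day 10 in shScr cells. On each day both shIL1R libraries had less than either shScr library. In a principal component analysis whose leading axis carried 68.9% of the variance, replicate 2 of shIL1R day 10 lay at 45.9, apart from replicate 1 at 77.2 and from the shScr day 10 libraries at 90.5 and 89.2. All 12 fibroblast markers passed the filter, with a summed level of 564088 to 825487 normalized counts. Within it FN1 had 317706 to 491242 at day 10, against 113034 to 159387 at day 0, while DCN had 2212 and 3705 in shIL1R and 1769 and 1361 in shScr cells at day 10, against 9957 and 9994 and 7877 and 6820 at day 0. In shScr cells COL1A1, COL1A2, COL3A1, PDGFRA, THY1, LUM and S100A4 also had less in both day 10 libraries than in both day 0 libraries. COL5A1 and VIM had more there, and PDGFRB overlapped. Of 7 lung epithelial markers 0 passed, with sums of 2.85 to 15.0. Of 6 leukocyte markers CD68 alone passed, and T-cell marker CD3E was at 0 throughout. The leukocyte sum was 5794 to 8482 in shIL1R and 7315 to 8934 in shScr cells at day 10, against 2848 to 2885 and 2866 to 3149 at day 0. Of 6 endothelial markers 4 passed, with sums of 1711 to 1981 in shIL1R and 1171 to 1357 in shScr cells at day 10, against 2501 to 3267 and 1652 to 1793 at day 0, and CDH5 was at 0 throughout. TEK makes up nearly all of that sum, at 1048 to 1818 at day 10, against 1644 to 3249 at day 0. KDR and VWF went the other way, at 51.6 to 216 and 50.6 to 63.7 at day 10, against 1.67 to 12.9 and 2.50 to 11.0 at day 0. Their part in the results was not tested.

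Glycolysis splits glucose into pyruvate in a preparatory stage, which spends ATP, and a payoff stage, which returns it, and cells that do not oxidise the pyruvate turn it into lactate and export it with a proton. When oxygen is short, the prolyl hydroxylases encoded by the EGLN genes no longer mark the transcription factor subunit HIF-1-alpha for destruction, and it binds, with its partner ARNT, to short elements with the core ACGTG or GCGTG near its target genes. Those targets include glucose transporters, nearly every glycolytic enzyme, carbonic anhydrases that handle the acid, receptors that send mitochondria to autophagy, and collagen hydroxylases. In many cases one of several sister genes for the same enzyme is the oxygen-responsive one. TXNIP and ARRDC4 work the other way, as arrestin-fold proteins that restrain glucose uptake and are themselves switched on by the glucose sensor MondoA.

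The promoters of the members with the largest rises show what such elements look like, and 4 are given here because these genes were higher at day 10 in both genotypes and hold a HIF core before their start. Each run is the 250 bases before the gene's start in RefSeq on GRCh38.p14, 5′ to 3′ on the gene's strand, with ACGTG or GCGTG, or its reverse complement CACGT or CACGC, in capitals.
ANGPTL4, chr19:8363905-8364154, plus strand: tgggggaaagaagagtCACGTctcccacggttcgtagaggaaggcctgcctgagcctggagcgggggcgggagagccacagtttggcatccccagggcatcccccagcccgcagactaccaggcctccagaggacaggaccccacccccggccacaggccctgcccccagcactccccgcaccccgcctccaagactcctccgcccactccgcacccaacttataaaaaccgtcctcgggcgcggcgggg
CA9, chr9:35673678-35673927, plus strand: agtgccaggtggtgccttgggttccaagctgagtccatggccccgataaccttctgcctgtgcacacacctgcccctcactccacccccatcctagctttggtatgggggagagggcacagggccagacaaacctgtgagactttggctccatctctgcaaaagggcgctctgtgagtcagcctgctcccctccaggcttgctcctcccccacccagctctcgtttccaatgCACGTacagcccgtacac
CA12, chr15:63381847-63382096, minus strand: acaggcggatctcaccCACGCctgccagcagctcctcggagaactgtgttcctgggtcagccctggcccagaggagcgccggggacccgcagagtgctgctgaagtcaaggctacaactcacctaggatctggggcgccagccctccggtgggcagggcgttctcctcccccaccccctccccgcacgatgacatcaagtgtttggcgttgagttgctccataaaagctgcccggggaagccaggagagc
ALDOC, chr17:28576896-28577145, minus strand: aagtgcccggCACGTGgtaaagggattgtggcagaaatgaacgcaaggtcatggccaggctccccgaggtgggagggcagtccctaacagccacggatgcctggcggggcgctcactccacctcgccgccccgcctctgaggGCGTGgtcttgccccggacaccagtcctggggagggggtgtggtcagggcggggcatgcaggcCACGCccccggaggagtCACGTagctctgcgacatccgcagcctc
The one core of CA9 begins 18 bases before the start, that of ANGPTL4 234 bases and that of CA12 234 bases. ALDOC holds 5 matches, of which 2 share the letters CACGTG read on both strands. Promoter windows were found for 37 of the 41 members (not for SLC2A3, SLC16A1, BNIP3L and NDRG1), and 31 of the 37 (83.8%) held at least 1 core in at least 1 window, against 12945 of 27305 genes in the table (47.4%). Genes with several starts have several windows. Among members with 1 window the share was 17 of 23 (73.9%), against 42.2% of the 22114 genes with 1 window. A match is only a stretch of letters, and these data hold no measure of binding.

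Between growing and senescent cells most of the 41 genes rose in both genotypes. At day 10 against day 0 in shIL1R cells 30 were higher and 4 lower (limma, adjusted p below 0.05 over 13924 genes), where 30.0% of all genes were higher and 30.3% lower. In shScr cells 31 were higher, against 32.5% of all genes, and 4 lower, against 31.3%. The median log2 fold change of the 41 was 0.49 in shIL1R and 0.80 in shScr cells, beside 0.01 over all genes tested in each. There were 28 members higher and 2 lower in both genotypes, and 3 were called in neither. The matching shares over all genes were not counted, so these joint counts are description only. At day 4 against day 0 in shIL1R cells 25 were higher and 2 lower, where 20.1% and 20.3% of all genes were. In shScr cells 29 were higher and 0 lower at day 4, where 19.4% and 18.9% of all genes were (1 lower at an unadjusted p below 0.05 in limma, 0 in edgeR and 1 in DESeq2). From day 4 to day 10, 10 rose and 3 fell in shIL1R cells, where 17.6% and 18.3% of all genes did, and 19 rose and 5 fell in shScr cells, where 21.7% and 22.4% did. Levels below are deposited normalized counts, replicate 1 before replicate 2, fold changes are log2 values of the normalized count plus 1 with their SE, and adjusted p-values are limma's over all genes tested. In RNA from whole cultures, a change in the share of cells that express a gene cannot be told apart from a change in RNA per cell.

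**Figure D1:**
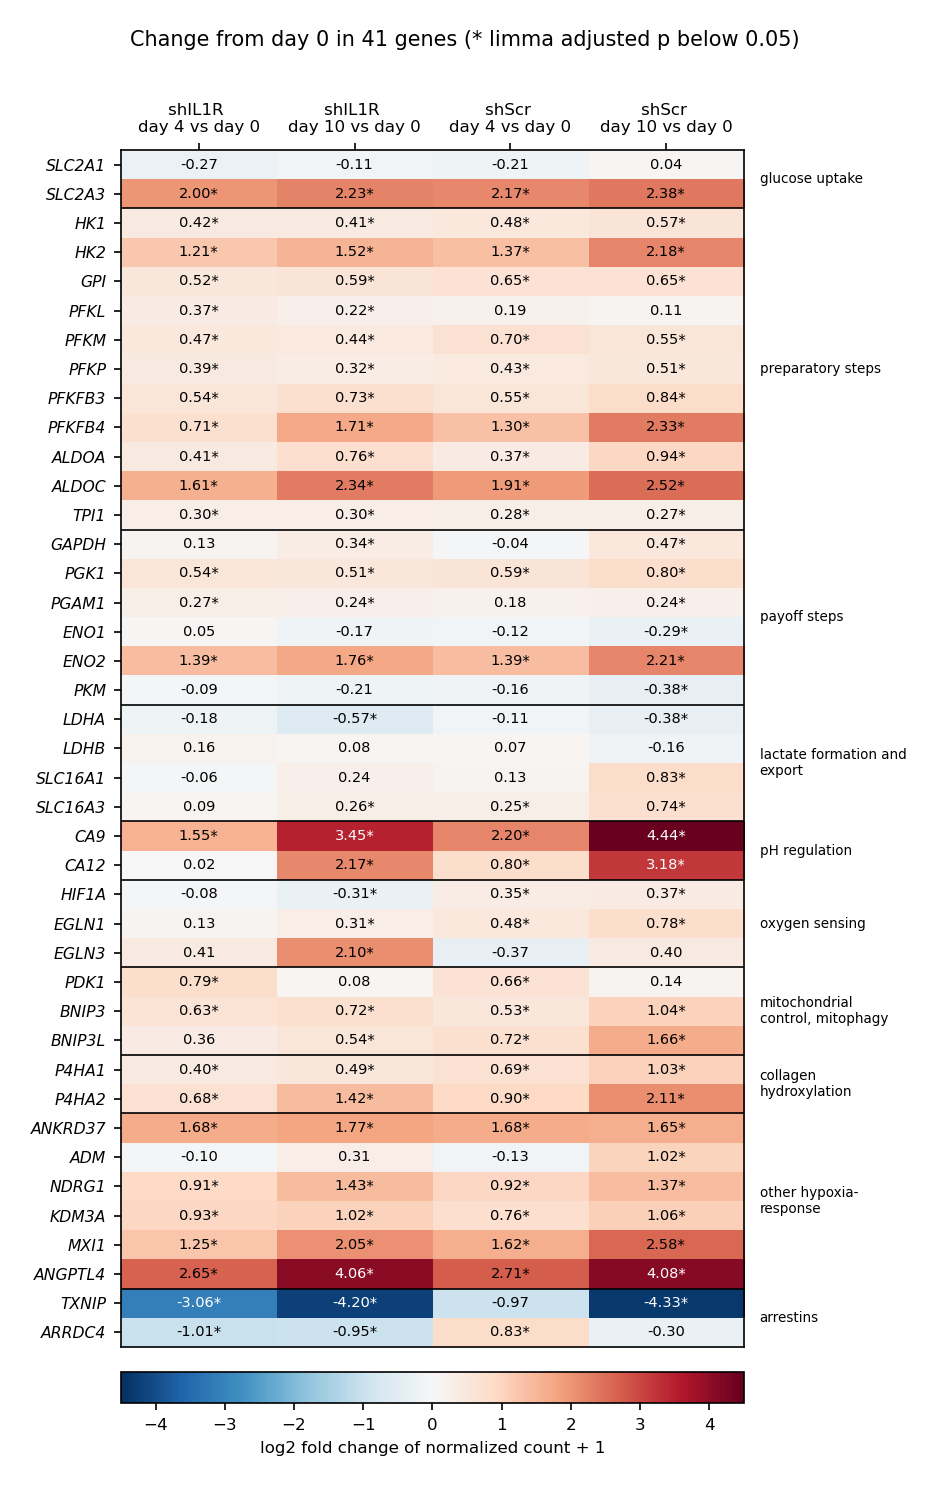
Log2 fold change of the normalized count plus 1 from day 0 for each of the 41 genes, at days 4 and 10 in shIL1R (left pair of columns) and shScr cells (right pair), grouped by role, with an asterisk where the limma adjusted p is below 0.05. ANGPTL4, CA9, CA12 and MXI1 are among the darkest red rows, TXNIP is the darkest blue, and SLC2A1 carries no asterisk.

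Glucose enters through SLC2A1 and SLC2A3, the genes of the transporters GLUT1 and GLUT3, and only SLC2A3 was called. SLC2A3 stood at 1979 and 2608 at day 0, 10027 and 8215 at day 4, then 15457 and 7324 at day 10 in shIL1R cells, and at 1753 and 1859 at day 0, 10075 and 6595 at day 4, then 8772 and 10045 at day 10 in shScr cells. Its rise came by day 4 and held: log2 fold changes at day 10 were 2.23 ± 0.29 in shIL1R (adjusted p = 6.67e-05) and 2.38 ± 0.29 in shScr cells (adjusted p = 3.48e-05). The 2 shIL1R libraries of day 10 lay on either side of the shScr pair. SLC2A3 is nearly identical to SLC2A14, so reads may be shared between them. SLC2A1 averaged 19402 ± 2356 in shIL1R and 17434 ± 177 in shScr cells at day 10, against 20954 ± 2720.5 and 16918 ± 499.9 at day 0 (SD, n = 2 each). Its log2 fold changes were −0.11 ± 0.12 and 0.04 ± 0.12, with 95% intervals of −0.37 to 0.15 and −0.22 to 0.31.

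Nearly all genes of the preparatory steps rose. Of 11 genes 11 were higher at day 10 in shIL1R and 10 in shScr cells, where 30.0% and 32.5% of all genes were. HK2, a hexokinase that traps glucose as its phosphate and sits on mitochondria, stood at 3386 and 4259.6 at day 0, 8327 and 9239 at day 4, then 13092 and 9090.4 at day 10 in shIL1R cells, and at 3213 and 3381 at day 0, 9137 and 7907 at day 4, then 13808 and 16208 at day 10 in shScr cells. Every library of days 4 and 10 exceeded every one of day 0, with log2 fold changes at day 10 of 1.52 ± 0.17 and 2.18 ± 0.17. HK1, the hexokinase most tissues keep on, moved less, at 6433 and 6633 at day 0, 9006 and 8463 at day 4, then 9144 and 8184 at day 10 in shIL1R cells, and at 6969 and 7271 at day 0, 9980.2 and 9904 at day 4, then 10213 and 10928 at day 10 in shScr cells. Its day 10 fold changes were 0.41 ± 0.08 and 0.57 ± 0.08.

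Phosphofructokinase commits sugar to glycolysis, and its 3 subunit genes each rose in shIL1R cells. The platelet form PFKP averaged 13805 ± 699 in shIL1R and 15325 ± 366 in shScr cells at day 10, against 11076 ± 38.6 and 10782 ± 168 at day 0, changes of 0.32 ± 0.07 and 0.51 ± 0.07. The muscle form PFKM changed by 0.44 ± 0.08 and 0.55 ± 0.08. The liver form PFKL changed by 0.22 ± 0.08 in shIL1R cells (adjusted p = 0.0288), a call lost on leaving out replicate 2 of shIL1R day 0 (adjusted p = 0.185) or replicate 2 of shIL1R day 10 (0.114), and with only the compared groups fitted (0.129). In shScr cells PFKL stood at 0.11 ± 0.08 and was not called (adjusted p = 0.213).

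PFKFB3 and PFKFB4 make and break down the sugar bisphosphate that activates phosphofructokinase. PFKFB4 stood at 392 and 375 at day 0, 744 and 533 at day 4, then 1331 and 1186 at day 10 in shIL1R cells, and at 408 and 388 at day 0, 864 and 1121 at day 4, then 2056 and 1943 at day 10 in shScr cells. It climbed at each step, by 1.71 ± 0.16 in shIL1R and 2.33 ± 0.16 in shScr cells at day 10 against day 0. PFKFB3 rose by 0.73 ± 0.10 and 0.84 ± 0.10.

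Among the aldolases, which cut the sugar bisphosphate into smaller sugars, ALDOC, best known from brain, stood at 525 and 609 at day 0, 1935 and 1551 at day 4, then 2754 and 2985 at day 10 in shIL1R cells, and at 601 and 567 at day 0, 2135 and 2256 at day 4, then 3607 and 3107 at day 10 in shScr cells. The days did not overlap in either genotype, and the changes were 2.34 ± 0.12 and 2.52 ± 0.12. The widespread ALDOA averaged 63067 ± 4386 in shIL1R and 72865 ± 2979 in shScr cells at day 10, against 37170.4 ± 379 and 38012 ± 892 at day 0, changes of 0.76 ± 0.09 and 0.94 ± 0.09. The isomerase genes GPI and TPI1 rose too. GPI changed by 0.59 ± 0.09 and 0.65 ± 0.09 and TPI1 by 0.30 ± 0.08 and 0.27 ± 0.08. The TPI1 calls were lost in shIL1R cells on leaving out replicate 2 of day 0 (adjusted p = 0.0545) and with only the compared groups fitted (0.0638), and in shScr cells without replicate 1 of day 0 (0.0997) or replicate 2 of day 10 (0.0623).

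**Figure D2:**
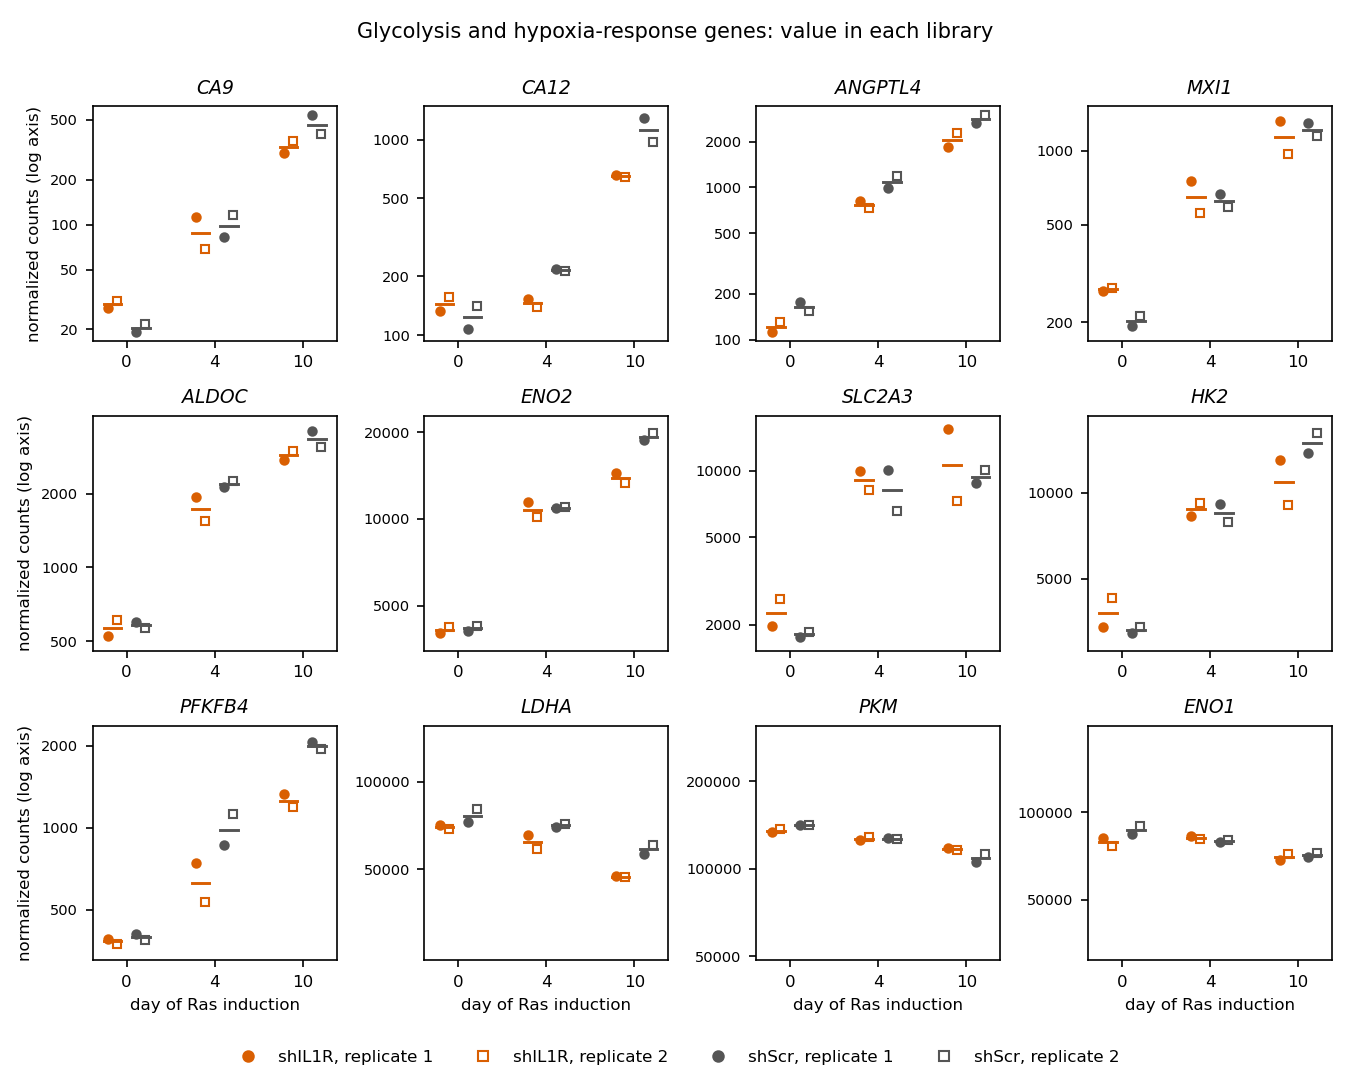
Normalized counts (log axes) of 12 glycolysis and hypoxia-response genes by day of Ras induction, 1 point for each library (orange shIL1R left of grey shScr; filled circle replicate 1, open square replicate 2) and bars at each group's geometric mean. CA9 climbs to 302 and 360 in shIL1R and 538 and 404 in shScr cells at day 10, while LDHA, PKM and ENO1 lie level or lower than at day 0.

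The payoff steps were split. Of 6 genes 4 were higher at day 10 in each genotype (66.7%, against 30.0% of all genes in shIL1R and 32.5% in shScr cells). In shScr cells 2 were lower, which at 33.3% is near the 31.3% of all genes. ENO2, the enolase known from neurons, stood at 4011 and 4198 at day 0, 11399.9 and 10112 at day 4, then 14381 and 13360.2 at day 10 in shIL1R cells, and at 4090.1 and 4253 at day 0, 10906 and 10968 at day 4, then 18836 and 19799.6 at day 10 in shScr cells. Its days did not overlap in either genotype, with changes of 1.76 ± 0.08 and 2.21 ± 0.08. PGK1, the first enzyme to give ATP back, stood at 22256 and 21712 at day 0, 33949.7 and 29897 at day 4, then 31316 and 31160.5 at day 10 in shIL1R cells, and at 22057 and 24778 at day 0, 35077 and 35545 at day 4, then 39308 and 42203 at day 10 in shScr cells. It rose by 0.51 ± 0.09 and 0.80 ± 0.09. From day 4 to day 10 its changes were −0.03 ± 0.09 and 0.21 ± 0.09 (neither called).

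GAPDH, often used as a reference gene in PCR, was not constant. It averaged 235532 ± 19905 in shIL1R and 283192 ± 13982 in shScr cells at day 10, against 186365 ± 819.6 and 204409 ± 8841 at day 0. The changes were 0.34 ± 0.12 (adjusted p = 0.0275) and 0.47 ± 0.12 (adjusted p = 0.00442). In shIL1R cells the call was lost with only the compared groups fitted (adjusted p = 0.113), without a filter (0.085), and without replicate 1 or 2 of day 0 (0.112 and 0.103) or replicate 1 of day 10 (0.133). PGAM1 rose by 0.24 ± 0.08 and 0.24 ± 0.08. That call was lost in shIL1R cells without replicate 2 of day 0 (adjusted p = 0.117) or of day 10 (0.0706) and with only the compared groups fitted (0.104), and in shScr cells without replicate 1 of day 0 (0.108) or replicate 2 of day 10 (0.086).

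ENO1, the common enolase, and PKM, the pyruvate kinase of the last step, fell in shScr cells. PKM averaged 117028 ± 1579 in shIL1R and 109043 ± 4546 in shScr cells at day 10, against 135114 ± 2407 and 141420.0 ± 512 at day 0, changes of −0.21 ± 0.10 (not called) and −0.38 ± 0.10 (adjusted p = 0.00558). ENO1 changed by −0.17 ± 0.09 (not called) and −0.29 ± 0.09 (adjusted p = 0.0183), a call lost on leaving out replicate 2 of shScr day 0 (0.116), or else replicate 1 of shScr day 10 (0.0722). GAPDH, PGK1, PGAM1, ENO1, TPI1, PKM and LDHA have processed pseudogenes, and how the counting split such reads is not given.

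LDHA and LDHB, the genes of lactate dehydrogenase, were not among the genes that rose. LDHA, which turns pyruvate into lactate and is a textbook HIF target, averaged 70020.0 ± 1470.0 at day 0, 62048 ± 4852 at day 4 and 47199 ± 124 at day 10 in shIL1R cells. In shScr cells it averaged 76409.7 ± 5576, 70914 ± 1076 and 58585 ± 2907 on the same days. Both day 10 libraries lay below both day 0 libraries in each genotype, with changes of −0.57 ± 0.10 (adjusted p = 0.000444) and −0.38 ± 0.10 (adjusted p = 0.00527), the second lost on leaving out replicate 2 of shScr day 0 (0.0585). Its sister LDHB was not called, at 0.08 ± 0.08 and −0.16 ± 0.08. Lactate leaves through SLC16A3 and SLC16A1, the genes of the monocarboxylate transporters MCT4 and MCT1. SLC16A3 stood at 15744 and 16142 at day 0, 17489 and 16402 at day 4, then 17733 and 20537 at day 10 in shIL1R cells, and at 15676 and 15604 at day 0, 19219.5 and 18037 at day 4, then 25242 and 26861 at day 10 in shScr cells. It rose by 0.74 ± 0.09 in shScr cells and by 0.26 ± 0.09 in shIL1R cells, where the call was lost on leaving out replicate 1 or 2 of day 0 (adjusted p = 0.114 and 0.0744) or replicate 2 of day 10 (0.149), and with only the compared groups fitted (0.113). SLC16A1 stood at 1121 and 1134 at day 0, 1098 and 1065 at day 4, then 1498 and 1179 at day 10 in shIL1R cells, and at 1139 and 1174 at day 0, 1284 and 1250.3 at day 4, then 1918 and 2198 at day 10 in shScr cells. It rose in shScr cells (0.83 ± 0.11), and was not called in shIL1R cells (0.24 ± 0.11, adjusted p = 0.0877).

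The carbonic anhydrases CA9 and CA12, surface enzymes that buffer exported acid, rose in both genotypes. CA9, a classic hypoxia marker of tumours, stood at 27.8 and 31.0 at day 0, 113 and 68.7 at day 4, then 302 and 360.0 at day 10 in shIL1R cells, and at 19.3 and 21.7 at day 0, 82.8 and 115 at day 4, then 538 and 404 at day 10 in shScr cells. Each day lay above the one before in every library, with changes at day 10 of 3.45 ± 0.26 (adjusted p = 1.16e-06) and 4.44 ± 0.26 (adjusted p = 1.41e-07). CA12 stood at 133 and 156 at day 0, 152 and 139.5 at day 4, then 656 and 646 at day 10 in shIL1R cells, and at 107 and 141 at day 0, 217 and 213 at day 4, then 1289.8 and 975 at day 10 in shScr cells. Its main rise came after day 4, by 2.15 ± 0.17 and 2.38 ± 0.17. At day 4 it was already higher in shScr cells (0.80 ± 0.17), while in shIL1R cells the change was 0.02 ± 0.17 (not called).

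Of the oxygen-sensing genes, HIF1A went in opposite directions in the genotypes and EGLN1 rose in both. HIF1A, which encodes HIF-1-alpha, a protein set mainly by its stability, stood at 6310.4 and 6718 at day 0, 6603 and 5741 at day 4, then 5686 and 4876 at day 10 in shIL1R cells, and at 6111 and 6419 at day 0, 8028 and 7945 at day 4, then 7468 and 8731 at day 10 in shScr cells. At day 10 it was lower than at day 0 in shIL1R cells (−0.31 ± 0.11, adjusted p = 0.0259) and higher in shScr cells (0.37 ± 0.11, adjusted p = 0.0101), the one member called in opposite directions. The first call was lost with only the compared groups fitted (adjusted p = 0.0737), without replicate 1 or 2 of shIL1R day 0 (0.0542 and 0.136) and on leaving out replicate 2 of shIL1R day 10 (0.146). The second was lost on leaving out replicate 1 of shScr day 0 (0.0654), or else replicate 2 of shScr day 10 (0.0981). EGLN1, the prolyl hydroxylase PHD2, which marks HIF-1-alpha in air and is itself a HIF target, stood at 1738 and 1970.1 at day 0, 2042 and 2002 at day 4, then 2222 and 2357 at day 10 in shIL1R cells, and at 1804 and 1731 at day 0, 2568 and 2371 at day 4, then 2982 and 3089 at day 10 in shScr cells. It rose by 0.31 ± 0.08 and 0.78 ± 0.08, and the shIL1R call was lost on leaving out replicate 1 of day 0 (adjusted p = 0.0971) and with only the compared groups fitted (0.069). EGLN3, or PHD3, was scarce, at 1.80 and 16.4 at day 0, 8.79 and 7.75 at day 4, then 21.6 and 38.4 at day 10 in shIL1R cells, and at 11.0 and 11.7 at day 0, 8.56 and 8.52 at day 4, then 17.7 and 13.2 at day 10 in shScr cells. Its change of 2.10 ± 0.67 in shIL1R cells (adjusted p = 0.0184) rests on the 1.80 and 16.4 of day 0. It became 0.78 without replicate 1 of that day (0.182), and was also lost on leaving out replicate 2 of shIL1R day 10 (0.0893) and with only the compared groups fitted (0.0994). In shScr cells EGLN3 was not called (0.40 ± 0.67).

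Genes of mitochondrial control followed 2 courses. BNIP3 and BNIP3L encode outer-membrane receptors that hand mitochondria to autophagy. BNIP3 stood at 6248 and 5802 at day 0, 10076 and 8615 at day 4, then 11452 and 8534 at day 10 in shIL1R cells, and at 6601 and 7201 at day 0, 10152 and 9708 at day 4, then 13665 and 14619 at day 10 in shScr cells. Every later library exceeded every day 0 library, with changes at day 10 of 0.72 ± 0.13 and 1.04 ± 0.13. BNIP3L stood at 4252 and 4478 at day 0, 6080.0 and 5151 at day 4, then 7745 and 5189 at day 10 in shIL1R cells, and at 3655 and 3759 at day 0, 6525 and 5741 at day 4, then 10370.1 and 13316 at day 10 in shScr cells. It rose by 1.66 ± 0.17 in shScr cells and by 0.54 ± 0.17 in shIL1R cells (adjusted p = 0.0185). The second call was lost on leaving out replicate 1 of shIL1R day 10 (log2 fold change 0.25, adjusted p = 0.161), without replicate 1 or 2 of shIL1R day 0 (0.0866 and 0.0538), and with only the compared groups fitted (0.0647).

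PDK1 encodes the kinase that shuts pyruvate out of the mitochondrion by inhibiting pyruvate dehydrogenase, and its course was a peak. It stood at 2939 and 2733 at day 0, 5496 and 4373 at day 4, then 3427 and 2634 at day 10 in shIL1R cells, and at 3203 and 3743 at day 0, 5381 and 5562 at day 4, then 3373 and 4302 at day 10 in shScr cells. At day 4 it was higher than at day 0 by 0.79 ± 0.16 and 0.66 ± 0.16, and from day 4 to day 10 it fell again, at −0.71 ± 0.16 and −0.52 ± 0.16. Against day 0 it was not called at day 10 (0.08 ± 0.16 and 0.14 ± 0.16). The rise in shScr cells was lost on leaving out replicate 1 of day 0 (adjusted p = 0.0641). The shScr fall was lost on leaving out replicate 1 or 2 of day 4 (0.0606 and 0.085) or replicate 1 of day 10 (0.16), and the shIL1R fall without replicate 1 of day 4 (0.052).

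The collagen prolyl hydroxylase subunits, which prepare procollagen for folding and need oxygen to do so, both rose. P4HA2 stood at 4582 and 4949 at day 0, 8194 and 7091 at day 4, then 14108 and 11538 at day 10 in shIL1R cells, and at 4812 and 4416 at day 0, 8732 and 8431 at day 4, then 18432 and 21389 at day 10 in shScr cells. It climbed at each step, by 1.42 ± 0.12 and 2.11 ± 0.12 at day 10 against day 0. P4HA1 stood at 7567 and 8757 at day 0, 11294 and 10218 at day 4, then 13149 and 9979 at day 10 in shIL1R cells, and at 7616 and 7409 at day 0, 12726 and 11514 at day 4, then 14551 and 16132 at day 10 in shScr cells. Its changes were 0.49 ± 0.13 and 1.03 ± 0.13, the first lost on leaving out replicate 1 of shIL1R day 0 (adjusted p = 0.0648).

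Of the remaining 6 hypoxia-response genes 5 were higher at day 10 in shIL1R cells and 6 in shScr cells, where 30.0% and 32.5% of all genes were. ANGPTL4, a secreted inhibitor of lipoprotein lipase, stood at 113 and 132 at day 0, 814 and 731 at day 4, then 1850.1 and 2282 at day 10 in shIL1R cells, and at 176 and 154 at day 0, 993 and 1180.3 at day 4, then 2650.4 and 2972 at day 10 in shScr cells. It rose at both steps and by 4.06 ± 0.14 and 4.08 ± 0.14 in all (adjusted p = 1.7e-08 and 6.94e-09). MXI1, a partner of MAX that opposes MYC, stood at 269 and 276 at day 0, 750.2 and 558 at day 4, then 1321 and 973 at day 10 in shIL1R cells, and at 193 and 213 at day 0, 663 and 591 at day 4, then 1297 and 1143 at day 10 in shScr cells, and rose by 2.05 ± 0.17 and 2.58 ± 0.17. ANKRD37, an ankyrin-repeat gene, stood at 85.3 and 67.1 at day 0, 290.1 and 206 at day 4, then 297 and 229 at day 10 in shIL1R cells, and at 85.4 and 79.3 at day 0, 263 and 269.8 at day 4, then 261 and 260.3 at day 10 in shScr cells. It was higher at day 4 (1.68 ± 0.20 and 1.68 ± 0.20), and the changes from day 4 to day 10 were 0.09 ± 0.20 and −0.03 ± 0.20 (not called). NDRG1, a stress-induced gene, stood at 8365 and 9414 at day 0, 16929 and 16378 at day 4, then 23041 and 24872 at day 10 in shIL1R cells, and at 7594 and 7487 at day 0, 14245 and 14260.0 at day 4, then 20709.6 and 18415 at day 10 in shScr cells, and rose by 1.43 ± 0.09 and 1.37 ± 0.09. KDM3A, a histone demethylase, stood at 1140.5 and 1107 at day 0, 2401 and 1907 at day 4, then 2749 and 1896 at day 10 in shIL1R cells, and at 1181 and 1187 at day 0, 2118 and 1888 at day 4, then 2521 and 2428 at day 10 in shScr cells, and rose by 1.02 ± 0.16 and 1.06 ± 0.16. ADM, which encodes the vasodilator peptide adrenomedullin, stood at 4332 and 5267 at day 0, 4689 and 4246 at day 4, then 7682 and 4579 at day 10 in shIL1R cells, and at 3385 and 2675 at day 0, 3322 and 2289 at day 4, then 5849 and 6362 at day 10 in shScr cells. It rose in shScr cells (1.02 ± 0.23), after day 4, and was not called in shIL1R cells (0.31 ± 0.23), where replicate 2 of day 10 lay between the 2 libraries of day 0.

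Of the arrestin genes, TXNIP was lower at day 10 than at day 0 in both genotypes, and ARRDC4 was called lower in shIL1R cells. TXNIP stood at 5427 and 4349 at day 0, 743 and 453 at day 4, then 372 and 186 at day 10 in shIL1R cells, and at 4391 and 4471 at day 0, 1480.1 and 3461 at day 4, then 185 and 258 at day 10 in shScr cells. At day 10 it was lower than at day 0 by the most of any member, at −4.20 ± 0.40 and −4.33 ± 0.40. At day 4 it had fallen in shIL1R cells (−3.06 ± 0.40, adjusted p = 0.000196), and in shScr cells the change was −0.97 ± 0.40 (adjusted p = 0.0757), where replicate 1 lay lower than replicate 2. ARRDC4 stood at 336 and 283 at day 0, 184 and 126 at day 4, then 186 and 135 at day 10 in shIL1R cells, and at 263 and 304 at day 0, 379.5 and 664 at day 4, then 183 and 286 at day 10 in shScr cells. At day 4 it was lower than at day 0 in shIL1R cells (−1.01 ± 0.30, adjusted p = 0.0188) and higher in shScr cells (0.83 ± 0.30, adjusted p = 0.0464). At day 10 the changes were −0.95 ± 0.30 (adjusted p = 0.0159) and −0.30 ± 0.30 (not called). The ARRDC4 calls are fragile. In shIL1R cells the day 4 call was lost on leaving out replicate 1 or 2 of day 0 (adjusted p = 0.109 and 0.0503) or replicate 2 of day 4 (0.138), and the day 10 call without replicate 1 of day 0 (0.0926) or replicate 2 of day 10 (0.0844). In shScr cells the day 4 call was lost on leaving out either library of either day 0 group (adjusted p from 0.0612 to 0.197) and without replicate 2 of shScr day 4 (log2 fold change 0.42, adjusted p = 0.342), without a filter (0.0754) and with the replicate block (0.0553). In replicate 2 of shScr day 4 the ribosomal precursor RNA45S5 took 3.41% of the reads, against 1.79% in replicate 1, and its part in these values was not tested.

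**Figure D3:**
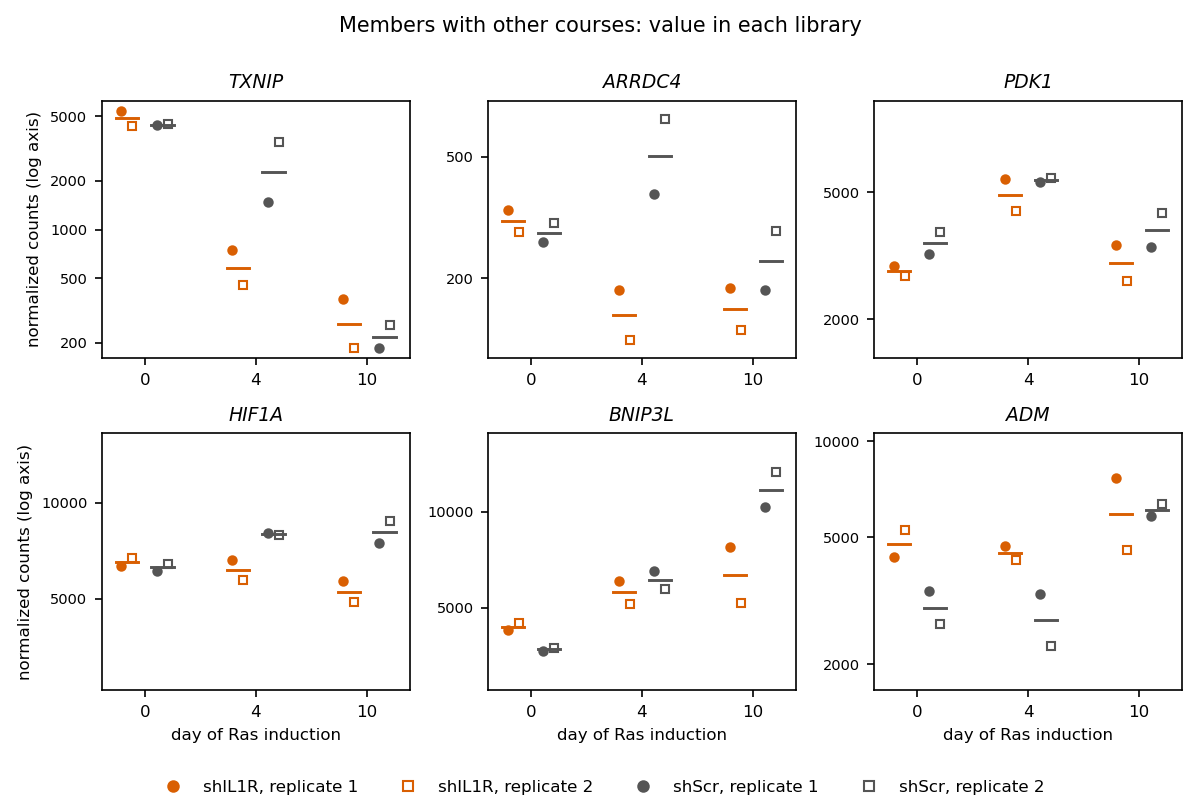
Normalized counts (log axes) of TXNIP, ARRDC4, PDK1, HIF1A, BNIP3L and ADM against the day of Ras induction, drawn as in the plot of 12 genes. TXNIP drops to 372 and 186 in shIL1R and 185 and 258 in shScr cells at day 10, PDK1 peaks at day 4, and both shIL1R libraries lie below both shScr libraries at day 10 for HIF1A and BNIP3L.

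Because counts of different genes depend on their length, sister genes were compared through the log2 ratio of their counts within each library, whose change between days is free of length. The 4 libraries of day 10 were set against the 4 of day 0, both genotypes pooled, in 14 pairs. The exact two-sided permutation test can give no p below 0.0286 here, and 10 of the 14 pairs reached it (Benjamini-Hochberg adjusted p = 0.04 over the 14), 9 with a higher and 1 with a lower ratio at day 10. In those 10 pairs the days did not overlap, which is the same fact as reaching the smallest p. SLC2A3 over SLC2A1 stood at −0.88 ± 0.35 at day 10, against −3.21 ± 0.08 at day 0 (SD, n = 4 libraries each), a difference of 2.34. ENO2 over ENO1 stood at −2.11 ± 0.28 at day 10, against −4.32 ± 0.09 at day 0, a difference of 2.21. ALDOC over ALDOA moved by 1.58, HK2 over HK1 by 1.36, and PFKFB4 over PFKFB3 by 1.23. CA9 over CA12 moved by 1.27, P4HA2 over P4HA1 by 1.00 and PFKM over PFKL by 0.33 (0.23 in shIL1R and 0.43 in shScr cells alone). ARRDC4 over TXNIP moved by 3.64. LDHA over LDHB was the one lower ratio, at 2.65 ± 0.25 at day 10, against 3.08 ± 0.02 at day 0, a difference of −0.43 (−0.65 in shIL1R and −0.22 in shScr cells alone). PFKP over PFKL (0.25, exact permutation test, adjusted p = 0.0727), BNIP3 over BNIP3L (−0.23, 0.333), EGLN3 over EGLN1 (0.70, 0.462) and SLC16A3 over SLC16A1 (−0.03, 0.857) did not pass. Most of these ratios restate changes of single genes given above, and were listed with those in view.

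**Figure D4:**
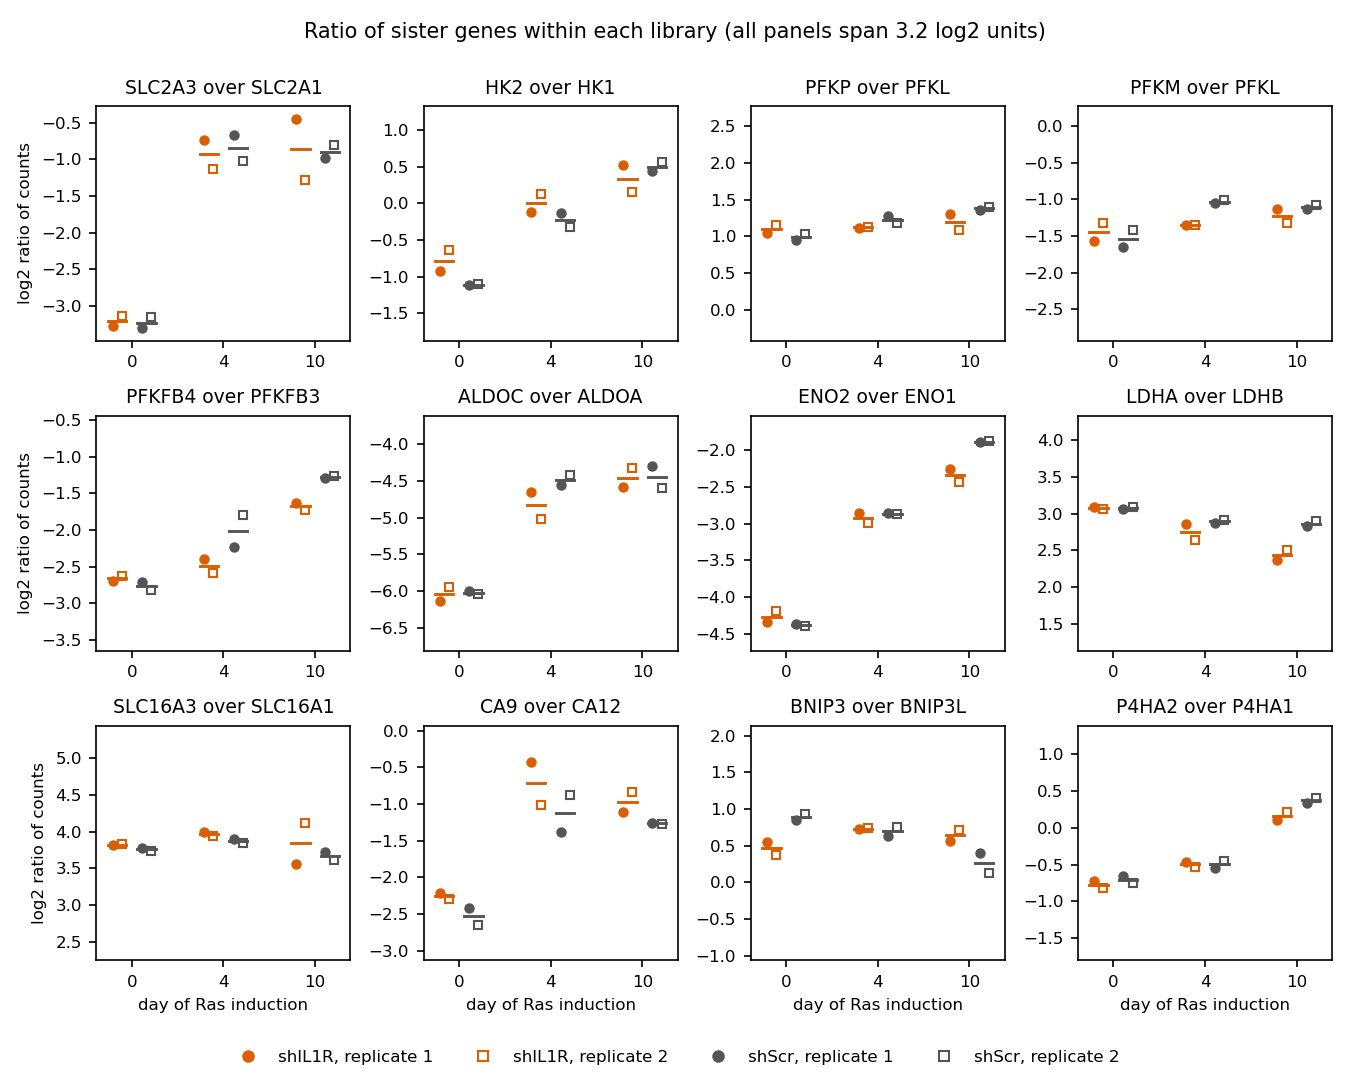
Log2 ratio of the normalized counts of 12 of the 14 pairs of sister genes within each library against the day of Ras induction (orange shIL1R left of grey shScr, bars at the group means, every panel 3.2 log2 units high). The SLC2A3 ratio jumps by day 4 and stays, the ENO2 ratio climbs at both steps, and the LDHA ratio declines.

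Whether the hairpin against the interleukin-1 receptor altered these genes was read at each day. At day 0, 0 of the 41 were called in shIL1R against shScr cells by limma (4 higher and 1 lower at an unadjusted p below 0.05, 0 in edgeR and DESeq2), where 0.0287% of all genes were higher and 0.0359% lower. At day 4 ARRDC4 alone was called, as lower in shIL1R cells, where 0.237% of all genes were lower and 0.0431% higher. It stood at 184 and 126 in shIL1R cells, against 379.5 and 664 in shScr cells, a log2 fold change of −1.71 ± 0.30 (adjusted p = 0.0479). That call was lost in 9 of the 12 fits that each left out a library and with only the compared groups fitted (adjusted p = 0.161), and it also did not hold without a filter (0.0837), with a filter of 50 (0.0538) or with the replicate block (0.0626). Without replicate 2 of shScr day 4 it was −1.31 (0.295), and without replicate 2 of shIL1R day 4 −1.45 (0.444). TXNIP, at 743 and 453 in shIL1R cells against 1480.1 and 3461 in shScr cells at day 4, did not pass (−1.96 ± 0.40, adjusted p = 0.0682). The test of whether the change from day 0 to day 4 differed between the genotypes called 0 of 41 members by limma (0 higher and 6 lower at an unadjusted p below 0.05, 0 in edgeR, 1 lower in DESeq2), and 0.0287% of all genes as lower. ARRDC4 had −1.84 ± 0.42 (adjusted p = 0.26) and TXNIP −2.09 ± 0.56 (adjusted p = 0.29) in that test.

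At day 10, 12 of the 41 were lower in shIL1R than in shScr cells and 0 higher (1 higher at an unadjusted p below 0.05), where 4.85% of all genes were lower and 4.37% higher. The median over the 41 was −0.27, beside −0.0034 over all genes tested. For all 12 both shIL1R libraries lay below both shScr libraries, which is close to built in, since the calls came from these libraries. Of the 12, 10 had risen from day 0 in both genotypes, as had 28 of all 41. The 12 came from most roles. BNIP3L, the mitophagy receptor, stood at 7745 and 5189 in shIL1R cells, against 10370.1 and 13316 in shScr cells (−0.89 ± 0.17, adjusted p = 0.0126). CA12 stood at 656 and 646 in shIL1R cells, against 1289.8 and 975 in shScr cells (−0.78 ± 0.17, 0.0196). PFKFB4 stood at 1331 and 1186 in shIL1R cells, against 2056 and 1943 in shScr cells (−0.67 ± 0.16, 0.0273). The collagen hydroxylase gene P4HA2 differed by −0.64 ± 0.12 (0.00945). The lactate transporter genes SLC16A1 and SLC16A3 differed by −0.63 ± 0.11 (0.00873) and −0.45 ± 0.09 (0.0142). Of the oxygen-sensing genes HIF1A differed by −0.62 ± 0.11 (0.00737) and EGLN1 by −0.41 ± 0.08 (0.0166). The other mitophagy receptor BNIP3 differed by −0.52 ± 0.13 (0.0324). Of the glycolytic enzymes ENO2 differed by −0.48 ± 0.08 (0.00731), PGK1 by −0.38 ± 0.09 (0.0298) and HK1 by −0.29 ± 0.08 (0.0469).

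Members with some of the largest rises over time were not called between the hairpins. The log2 fold change of shIL1R over shScr cells was −0.45 ± 0.14 for ANGPTL4 (adjusted p = 0.0703), −0.50 ± 0.26 for CA9 (0.246), −0.46 ± 0.17 for HK2 (0.106), −0.10 ± 0.17 for MXI1 (0.735) and −0.22 ± 0.12 for ALDOC (0.264). The 95% interval of the CA9 difference was −1.08 to 0.08 and that of MXI1 −0.47 to 0.27, so a fall as large as that of BNIP3L lies inside the first and outside the second. NDRG1 lay on the other side of 0, at 0.29 ± 0.09 (0.0606).

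None of the 12 calls at day 10 held in every fit with a library left out. All 12 were lost on leaving out replicate 2 of shScr day 10 (adjusted p from 0.0519 for CA12 to 0.296 for HK1), 7 members were called without replicate 2 of shIL1R day 10, 18 (1 higher, 17 lower) without replicate 1 of it, and 0 with only the compared groups fitted. Replicate 2 of shIL1R day 10 was the lower of the shIL1R pair in 10 of the 12 genes, and in 31 of all 41. It also stood apart in fibroblast collagens, with COL1A1 at 159731, against 65668 in replicate 1 and 71414.5 and 61449.7 in shScr cells, and COL3A1 at 22979.9, against 6312 in replicate 1 and 6743 and 5467 in shScr cells. HRAS, at 37518 and 25280.1 in shIL1R cells against 51790.5 and 50789 in shScr cells, was also lower at day 10 (−0.74 ± 0.17, adjusted p = 0.0257). At day 4, when ARRDC4 alone of the members was called, HRAS stood at 19278 and 15523 in shIL1R cells, against 29774 and 23749.6 in shScr cells. At day 0 it stood at 41321 and 41405, against 43044 and 43386.5. Which Ras isoform the construct holds is not in the labels, and its reads would be counted together with those of the cell's own gene. The share of RNA45S5 was 3.0 and 2.65% in shIL1R cells and 2.52 and 2.51% in shScr cells at day 10. Their part in the result was not tested.

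**Figure D5:**
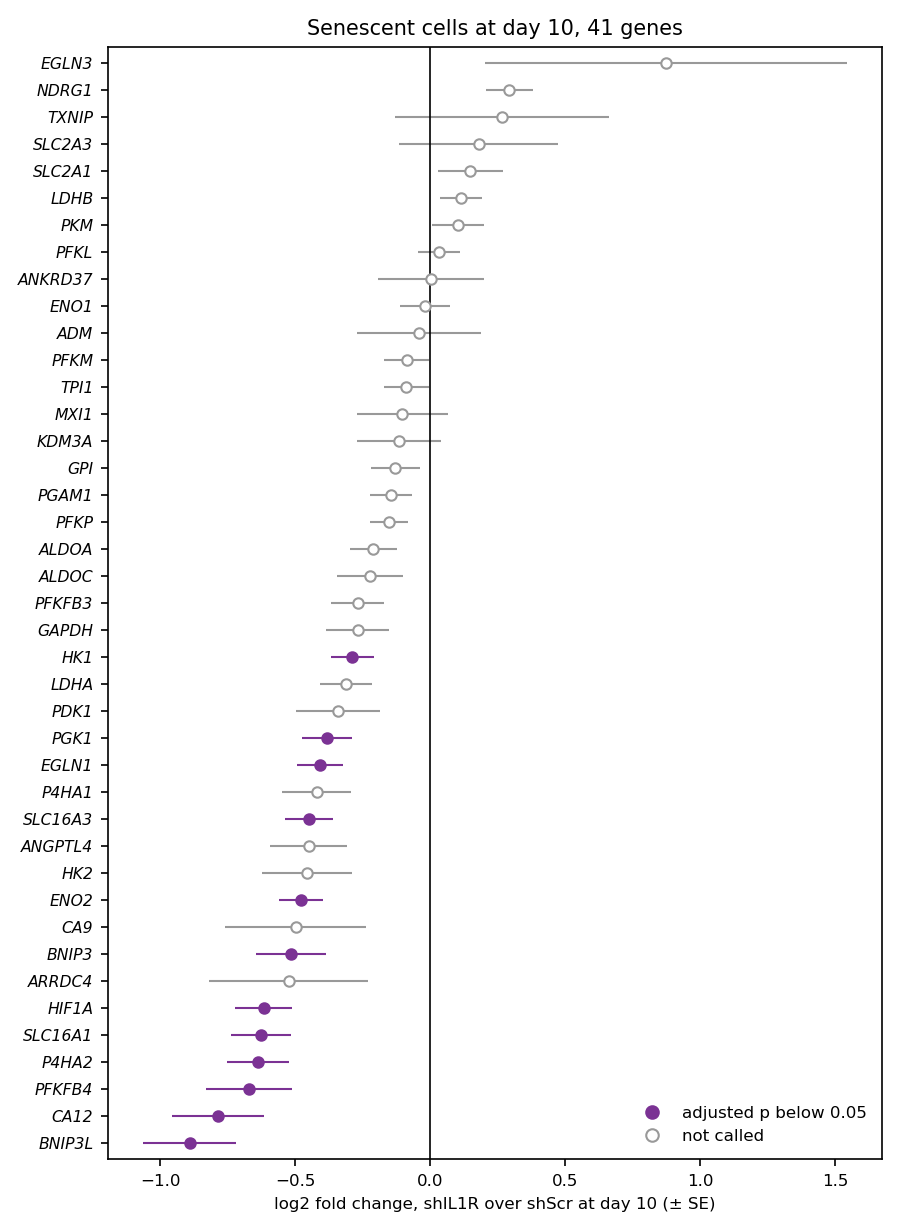
Log2 fold change of shIL1R over shScr cells at day 10 (x axis, with bars of 1 SE) for each of the 41 genes in order of size, filled where the limma adjusted p is below 0.05 and open where it is not. The 12 filled points all lie left of 0, from BNIP3L at −0.89 to HK1 at −0.29, and NDRG1 and SLC2A3 are among the open points on the right.

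A difference at day 10 between hairpins could already be there at day 0, so the change from day 0 was compared between the genotypes. That test called 2 of 41 members as lower and 0 as higher, where 1.54% of all genes were lower and 0.876% higher. The change in shIL1R cells minus that in shScr cells was −1.13 ± 0.24 for BNIP3L (adjusted p = 0.0389) and −0.67 ± 0.15 for HIF1A (adjusted p = 0.0429), on the log2 scale. CA12 (−1.01 ± 0.24, adjusted p = 0.0546), P4HA2 (−0.68 ± 0.16, 0.0554) and ENO2 (−0.45 ± 0.11, 0.0668) came close without passing. The BNIP3L call was lost in 9 and the HIF1A call in 8 of the 12 fits that each left out a library, with adjusted p up to 0.177 and 0.192, and both with only the compared groups fitted (0.0805 and 0.083). The counts were 0 without any one of the 4 libraries of day 0 or of the 2 of shScr day 4, and also without shScr day 10 replicate 2, 1 without either library of shIL1R day 4, and 13 without replicate 1 of shIL1R day 10. These tests share libraries with those of day 10, so they are no separate evidence.

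Genes of the same pathways outside the 41 were counted from 6 lists, to be read against the 30.0% of all genes higher and 30.3% lower at day 10 in shIL1R cells, and 32.5% and 31.3% in shScr cells. Of 33 other hypoxia targets, 21 were higher and 2 lower at day 10 against day 0 in shIL1R cells, and 30 higher in shScr cells (29 to 31 in the 12 fits with a library left out). The list's medians were 0.57 and 1.13. DDIT4, a brake on the growth kinase mTOR, rose by 1.76 ± 0.34 in shIL1R and 2.94 ± 0.34 in shScr cells, the transcriptional repressor BHLHE40 by 2.72 ± 0.16 and 2.85 ± 0.16, and FAM162A by 2.33 ± 0.20 and 2.82 ± 0.20. Between the hairpins at day 10, 5 of the 33 were lower in shIL1R cells, where 4.85% of all genes were. With the largest difference among the 5, PLOD2, a lysyl hydroxylase of collagen, stood at 16238 and 12147 in shIL1R cells, against 27088 and 40174 in shScr cells (−1.23 ± 0.19, adjusted p = 0.00502). It was picked after its values were seen. That count was 0 without replicate 2 of shScr day 10, and 16 (1 higher, 15 lower) without replicate 1 of shIL1R day 10.

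Of 6 tested genes of the HIF system itself, 1 was higher and 2 lower at day 10 in shIL1R cells, and 3 higher and 2 lower in shScr cells. The partner ARNT rose by 0.77 ± 0.11 and 0.97 ± 0.11, and EPAS1, which encodes HIF-2-alpha, fell, at −0.98 ± 0.19 and −0.76 ± 0.19. ARNT2, a sister of ARNT, fell to 343 and 321 in shIL1R and 617 and 573 in shScr cells at day 10, against 1017 and 1027 and 964 and 809 at day 0 (−1.62 ± 0.17 and −0.57 ± 0.17). VHL, which binds hydroxylated HIF for destruction, changed by −0.17 ± 0.10 (not called) and 0.46 ± 0.10, and CITED2, which competes with HIF for a coactivator, by 0.26 ± 0.29 (not called) and 1.52 ± 0.29.

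Of 18 tested other genes of glycolysis, 7 were higher and 5 lower in shIL1R cells at day 10, and 8 higher and 3 lower in shScr cells. Those are 38.9% and 27.8% in shIL1R cells, near the shares over all genes, and 44.4% and 16.7% in shScr cells. BPGM, whose product lowers the oxygen affinity of haemoglobin in red cells, rose by 2.17 ± 0.21 and 2.76 ± 0.21, and PFKFB2, a sister of PFKFB4, by 2.21 ± 0.24 and 2.71 ± 0.24. The hexokinase-like HKDC1 stood at 65.9 and 27.1 in shIL1R and 56.6 and 37.5 in shScr cells at day 10, against 2.69 and 9.47 and 2.76 and 3.34 at day 0, a few reads, so its fold changes (2.80 ± 0.67 and 3.54 ± 0.67) depend on the added 1. SLC16A7, a monocarboxylate transporter gene, fell, at −1.80 ± 0.24 and −1.37 ± 0.24. The muscle enolase ENO3 changed by −0.26 ± 0.23 (not called) and −0.95 ± 0.23, and the transporter SLC2A12 by −0.62 ± 0.25 (not called) and −0.70 ± 0.25.

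Of 12 genes that govern the entry of pyruvate into mitochondria, 5 were higher (41.7%) and 4 lower (33.3%) in shIL1R cells at day 10, and 5 higher (41.7%) and 2 lower (16.7%) in shScr cells, so the shIL1R shares lie close to those over all genes. The kinase gene PDK3 rose by 0.61 ± 0.13 and 1.23 ± 0.13, the phosphatase gene PDP2, which acts the other way, by 0.98 ± 0.14 and 0.99 ± 0.14, and PDHX, a binding subunit of the dehydrogenase complex, by 0.62 ± 0.13 and 1.01 ± 0.13. PDHA1, its catalytic alpha subunit, fell, at −0.55 ± 0.08 and −0.79 ± 0.08. PC, pyruvate carboxylase, changed by 0.06 ± 0.16 (not called) and −0.46 ± 0.16. Of 9 pentose phosphate genes, 3 were higher and 3 lower in shIL1R cells (33.3% each, about the shares over all genes), and 2 higher (22.2%) and 4 lower (44.4%) in shScr cells. TKT (transketolase) rose by 1.08 ± 0.10 and 0.67 ± 0.10 and PGLS by 1.02 ± 0.09 and 0.72 ± 0.09. PRPS1, which leads to nucleotides, fell, at −0.59 ± 0.14 and −1.01 ± 0.14, as did RPIA (−0.42 ± 0.13 and −0.66 ± 0.13) and RPE (−0.50 ± 0.09 and −0.50 ± 0.09). A last list took in the gene of MondoA itself, MLX, MAX, MNT and other arrestin-domain genes. Of its 7 tested genes, 6 were higher at day 10 in each genotype (5 to 6 with a library left out). MLX, the partner of MondoA, rose by 0.84 ± 0.15 and 0.98 ± 0.15, MNT, which binds MAX, by 1.24 ± 0.12 and 1.42 ± 0.12, and ARRDC2, a relative of TXNIP, by 1.54 ± 0.23 and 1.70 ± 0.23.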

How the data were processed

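The assay was RNA-seq of poly(A) RNA, 12 libraries in 6 groups of 2, from a stranded kit per the labels' protocols. Per the submitters' processing notes, the authors used TopHat against hg19, HTSeq and DESeq2, with no versions; neither the annotation nor the strand option of HTSeq is given in the sources used here. The deposited values are a signal in normalized counts, that is, reads divided by a library factor. Every value (100%) was a whole multiple of its library's smallest one within 0.001 reads, so reads could be recovered, and a read is worth 0.835 to 1.20 normalized counts. Libraries of the same group differed by far more than counting error (chi-square per degree of freedom 8.04 to 55.1).

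The 41 genes, the gene lists, the sister pairs and the tests were chosen with earlier results of these data known. A gene was tested if 2 libraries or more reached 10 normalized counts (13924 genes). Log2 values with a pseudocount of 1, which understates changes of low genes, went into limma 3.58.1 (R 4.3.3). It fitted 1 mean per group to the 12 libraries together, with a trended eBayes prior (6 residual degrees of freedom, 4.98 prior). Of the 11 contrasts, 6 set days against each other within a genotype, 3 set genotypes against each other within a day, and 2 asked whether the change since day 0 differed by genotype. Adjusted p-values are two-sided and Benjamini-Hochberg over all genes of a contrast, called below 0.05. Sister ratios used an exact permutation test (scipy 1.17.1). The fit was also tested on data simulated with known changes for the comparison of shScr day 10 against day 0. That simulation gave all genes and groups the same spread beyond counting error, unlike these libraries. It covered no comparison between hairpins.

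Every member is named. Values per library are given for members called with a log2 change of at least 1 from day 0 to day 10 in either genotype or called between genotypes, and the other members are given by means or fold changes. From each other list up to 3 called genes per direction with the largest change in shScr cells at day 10 are named. The fit was repeated with pseudocounts of 0.5 and 5, a filter of 50, no filter beyond a value above 0 in a library, TMM factors, a replicate block, only the compared groups, and 11 libraries at a time, and the recovered reads were tested with edgeR 4.0.16 (quasi-likelihood) and DESeq2 1.42.0. On those reads edgeR called 4216 genes higher and 4207 lower at day 10 in shIL1R cells, and 586 higher and 712 lower between the hairpins at day 10, where limma called 4183 and 4213, and 608 and 675. Promoter windows came from RefSeq on GRCh38.p14 and are not tied to hg19.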

Additional observations from a re-analysis of the deposited data

Results flagged for a closer look

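A pair of members differed between the genotypes in their change from day 0 to day 10 by a test of the difference itself, and both are single calls among 41 genes. BNIP3L, a mitophagy receptor gene, was higher at day 10 than at day 0 by a log2 fold change of 0.54 ± 0.17 in shIL1R and 1.66 ± 0.17 in shScr cells, a difference of −1.13 ± 0.24 (limma adjusted p = 0.0389). HIF1A, which encodes HIF-1-alpha, had −0.31 ± 0.11 in shIL1R and 0.37 ± 0.11 in shScr cells, a difference of −0.67 ± 0.15 (limma adjusted p = 0.0429). Both shIL1R libraries of day 10 lay below both shScr libraries of day 10 in each gene, while at day 0 BNIP3L was higher in both shIL1R libraries (4252 and 4478 normalized counts, against 3655 and 3759 in shScr cells). At day 4 the same difference was −0.36 ± 0.24 for BNIP3L (limma adjusted p = 0.624) and −0.43 ± 0.15 for HIF1A (0.351). What the replicates stand for is not given in the labels, and replicate 2 of shIL1R day 10, the lower of its pair in both genes, lay apart on the first principal component. Its part in the differences was not tested beyond leaving it out, which gave −0.84 for BNIP3L and −0.56 for HIF1A. Neither of the 2 calls held in every fit with a library left out.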

How the results depend on the processing

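Counts of called members between days stayed within 1.5 times under every alternative, except that 8 rather than 13 were called from day 4 to day 10 in shIL1R cells with only the compared groups fitted. Between hairpins at day 4 the 1 call became 0 without a filter, with a filter of 50, with the replicate block and in the compared groups alone, and 5 in DESeq2. At day 10 the 12 calls became 0 in the compared groups alone. The test of changes to day 4 gave 1 call in DESeq2, and that of changes to day 10 gave 0 without a filter, 0 in the compared groups alone, 1 with the replicate block and 8 in DESeq2, against 2. With a library left out the counts ran from 0 to 6 at day 4, from 0 to 18 at day 10 and from 0 to 13 for changes to day 10. The replicate block rests on a number only, since same-numbered libraries shared little (correlations of deviations −0.10 to 0.23 over 15 group pairs, over 0.1 in 4), and it left 11 calls at day 10. The 30 calls that the compared groups alone lost among 243 single results were the most of any setting, DESeq2 added 20, and no single result turned round. Sister ratios in shIL1R and shScr cells alone were 1.12 and 1.61 for HK2 over HK1, 0.098 and 0.39 for PFKP over PFKL, 0.98 and 1.49 for PFKFB4 over PFKFB3, and 1.92 and 2.50 for ENO2 over ENO1. BNIP3 over BNIP3L had 0.18 and −0.63, EGLN3 over EGLN1 −0.38 in shScr cells, and SLC16A3 over SLC16A1 0.022 in shIL1R cells. With a library left out the last ran from −0.16 to 0.028, above 0 in the fits lacking shScr day 10 replicate 2 (0.013) and shIL1R day 10 replicate 1. The causes were not tested. EGLN3, at 2 to 38 normalized counts, is limited by depth.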
